A study of Arabidopsis thaliana with 6 samples.

Results

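The 23 genes described here are cytochrome P450 genes of Arabidopsis thaliana that were chosen by name. Each has a probe set that the platform annotation pairs with that gene alone, and a symbol made of CYP, a family number, a subfamily letter and a gene number. They are 23 of 13356 genes with a probe set of their own. The TAIR10.1 gene table holds 236 genes with a symbol of this form. The other 213 had no one-gene probe set in the annotation used and were not analysed singly. For 8730 of the tested probe sets the annotation lists no gene, so P450 genes among them, called or not, would not be recognised here. The closing section gives 2 probe sets that the annotation pairs with several genes, P450 genes among them. All 23 are also named as cytochrome P450 in the synonyms of the gene table. P450s are oxygen-using enzymes as a family, but the gene table types 2 of the 23 loci, CYP51G2 and CYP71B27, as transcribed pseudogenes. CYP71B30P carries a pseudogene name, although the table types it as protein coding.

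The study compared 3 arrays of 35S:PCO1 plants with 3 arrays of wild-type plants. In the 35S:PCO1 line the cauliflower mosaic virus 35S promoter, which is active in most plant tissues, drives PCO1, a plant cysteine oxidase. Both genotypes spent 4 h at 5% oxygen without light, so the comparison is between genotypes under low oxygen, and plants in normal air were not analysed here. Plants of both genotypes were stratified for 2 days and grown with 8 h of light and 16 h of dark per day. The temperature was 22 °C by day and 18 °C by night, and the labels give a time of 2 h after the start of the day. The labels give the tissue as a rosette in one field and as the whole plant in another, and the age as 4 or 5 weeks. Neither the number of transformed lines nor a pooling of plants is stated in the labels, so the p-values reflect only how far these samples vary, and part of that variation may be technical.

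Cytochrome P450s are haem enzymes that bind molecular oxygen, insert an oxygen atom into a substrate and reduce the remaining atom to water, with electrons from NADPH that usually arrive through a P450 reductase. In plants they build hormones, sterols, lignin precursors, cuticle lipids and defence compounds, and they break several hormones down again. The family number groups proteins of similar sequence, and CYP71, which in Arabidopsis consists largely of tandem gene copies, is mostly tied to specialised metabolism and defence. Plant cysteine oxidases also use oxygen. Their substrates are the group VII ethylene response factors, activators of the hypoxia response whose N-terminal cysteine, once oxidised, leads to their degradation. The arrays measure transcripts and say nothing of the activity of either kind of enzyme.

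The 23 P450 genes with a one-gene probe set came from 5 of the 40 families in the gene table. The CYP71B subfamily supplied 19 of them, out of 36 CYP71B genes in the table, and CYP51, CYP78, CYP79 and CYP84 supplied 1 gene each. Most CYP71B genes lay in runs of neighbours. A run on chromosome 3, from CYP71B16 (AT3G26150) to CYP71B37 (AT3G26330), held 11 of the measured genes among 24 consecutive loci, of which 18 carry a P450 symbol. A second run on chromosome 3 held CYP71B5, CYP71B30P and CYP71B31 within 4 loci, and a run on chromosome 1 held CYP71B27, CYP71B28 and CYP71B29 within 4 loci. CYP71B6 on chromosome 2 and CYP71B38 on chromosome 3 stood alone. Every measured gene had 1 probe set, and none of these IDs ended in the suffixes for probes shared between sequences. Cross-hybridisation between such similar neighbours was not tested.

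None of the 23 P450 genes was called higher or lower in 35S:PCO1. The comparison used limma on the deposited log2 values, with p-values adjusted by Benjamini-Hochberg across the 22746 tested probe sets and a call at an adjusted p under 0.05. That rule called 60 probe sets, or 0.264% of those tested (0.0703% higher and 0.193% lower in 35S:PCO1), a share that amounts to under 1 gene in a list of 23. The adjusted p of the P450 genes ran from 0.458 to 0.998. At an unadjusted p under 0.05 there was 1 P450 gene of 23, CYP71B37, which was lower in 35S:PCO1, against 10.4% of all probe sets in either direction and 6.85% lower. The log2 changes, 35S:PCO1 minus wild type, lay between -0.16 and 0.11, with 10 positive and 13 negative values (56.5% negative, beside 55.2% over all probe sets). Their median was -0.019, beside -0.012 over all probe sets, and their median size was 0.063, beside 0.065 over all probe sets. In RNA of whole tissue, fewer cells that express a gene and less transcript per cell cannot be told apart.

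The intervals of the differences were narrow. For each of the 23 genes, the 95% interval of the log2 change lay within a 1.5-fold difference either way, as it did for 97.9% of all probe sets. It lay within a 1.2-fold difference for 13 of the 23, against 60.3% of all probe sets. The lowest bound was -0.49, for CYP71B23, and the highest was 0.34, for the same gene. These intervals hold for single genes and are not adjusted for their number. RMA, the summary method behind the deposited values, compresses differences of dim probe sets, so bounds for the dimmest genes may be too narrow in terms of transcript.

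**Figure D1:**
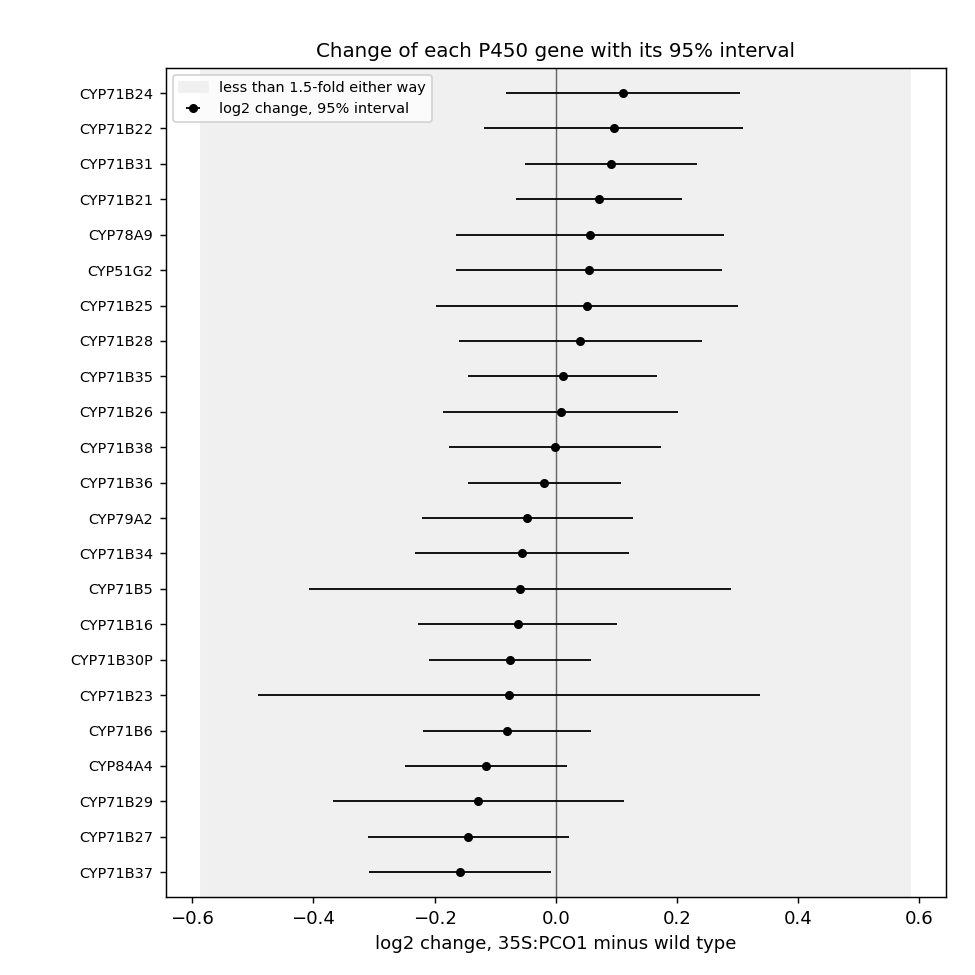
Log2 change of each P450 gene, 35S:PCO1 minus wild type (points), with its 95% interval from limma (lines), 3 arrays per group; the grey band spans a 1.5-fold difference either way. All 23 intervals lie inside the band, and 22 of them include 0.

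Wild-type levels of most P450 genes at 5% oxygen lay in the lower part of the array's scale. A level depends on the probes of a set as well as on the transcript, so levels of different genes are given here as a description and are not ranked. The wild-type means of the 23 genes ran from 3.40 to 8.46 on the log2 scale, with a median of 4.40. The median over all probe sets was 5.89, and the lowest value in the table was 2.73. Of the 23 genes, 8 lay under the lower quartile of all probe sets (4.25), 9 between it and the median, 5 between the median and the upper quartile (7.61), and 1 above it. By family number, the 19 CYP71 genes had a median wild-type mean of 4.40 (range 3.40 to 8.46) and a median log2 change of -0.019 (range -0.16 to 0.11). The 4 genes of the other families had wild-type means between 3.87 and 5.85 and log2 changes between -0.11 and 0.056.

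**Figure D2:**
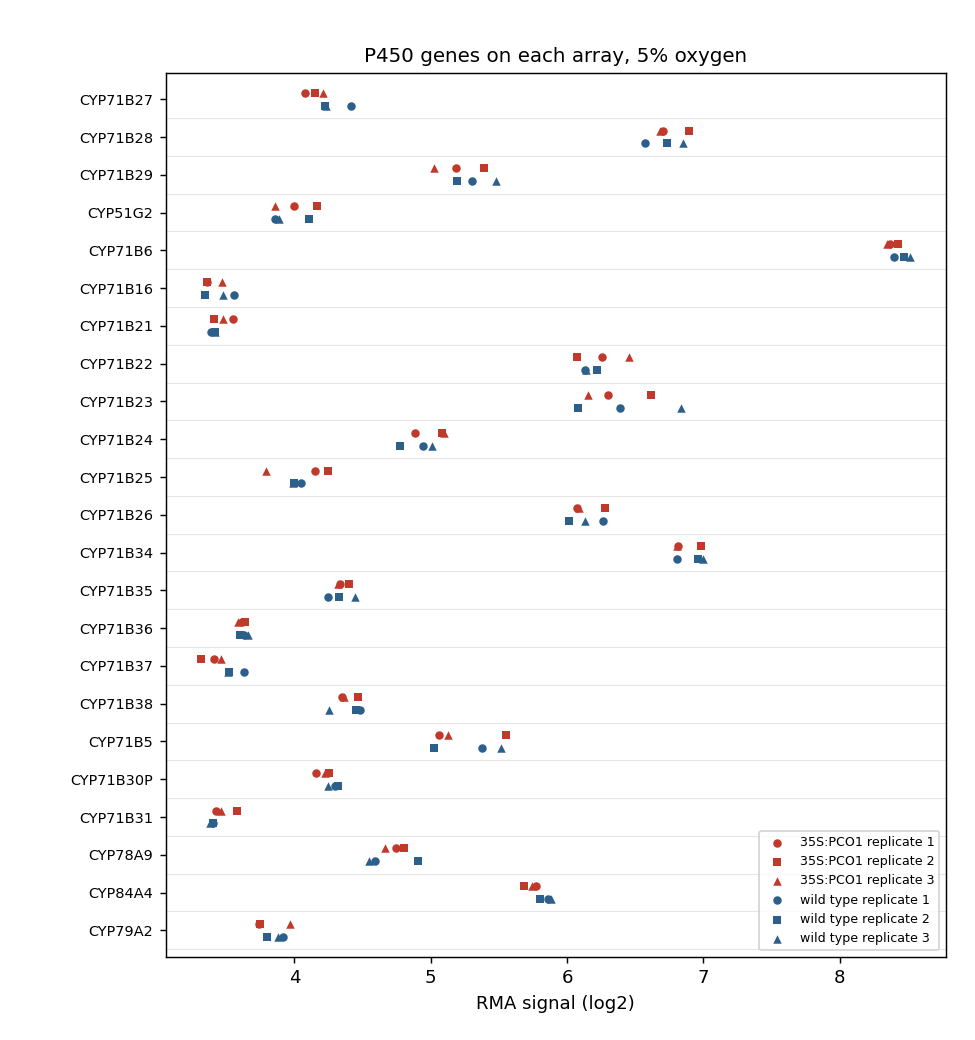
RMA signal (log2) of the 23 P450 genes on every array, by gene order within chromosomes 1, 2, 3 and 5; red symbols are the 3 arrays of 35S:PCO1 and blue symbols the 3 arrays of wild type, with the shape giving the replicate number. The arrays of both genotypes overlap in 19 of the 23 genes.

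The groups did not overlap in 4 of the 23 genes, or 17.4%, against 16.2% of all probe sets. Lower in 35S:PCO1 on every array were 3 of them (background 10.5%), and higher on every array was 1 (background 5.68%). Both shares rest on few genes, and the count over either direction lay near the background. CYP71B37, at the end of the chromosome 3 run and of no assigned role here, had signals of 3.41, 3.32 and 3.46 in 35S:PCO1 and 3.63, 3.52 and 3.51 in wild type. Its log2 change was -0.16 (SE 0.066, adjusted p = 0.458 by limma, 95% interval -0.31 to -0.0074), the lowest of the P450 genes. All 6 values lay under the lower quartile of all probe sets.

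CYP71B27, which the gene table types as a transcribed pseudogene, had 4.08, 4.15 and 4.21 in 35S:PCO1, against 4.41, 4.23 and 4.23 in wild type. The gap between the groups, from 4.21 to 4.23, was small beside the range within wild type. Its log2 change was -0.14 (SE 0.073, adjusted p = 0.550 by limma). CYP84A4, a P450 of arabidopyrone synthesis that branches from the phenylpropanoid pathway, had 5.77, 5.68 and 5.74 in 35S:PCO1 and 5.86, 5.80 and 5.88 in wild type. Its replicates were tight, with a pooled SD of 0.044, and its log2 change was -0.11 (SE 0.059, adjusted p = 0.557 by limma). CYP71B31, a P450 of linalool oxidation in flowers, was the gene with every 35S:PCO1 array above every wild-type array. It had 3.42, 3.58 and 3.46 in 35S:PCO1 and 3.41, 3.41 and 3.38 in wild type, a log2 change of 0.091 (SE 0.063, adjusted p = 0.670 by limma) at a dim signal.

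**Figure D3:**
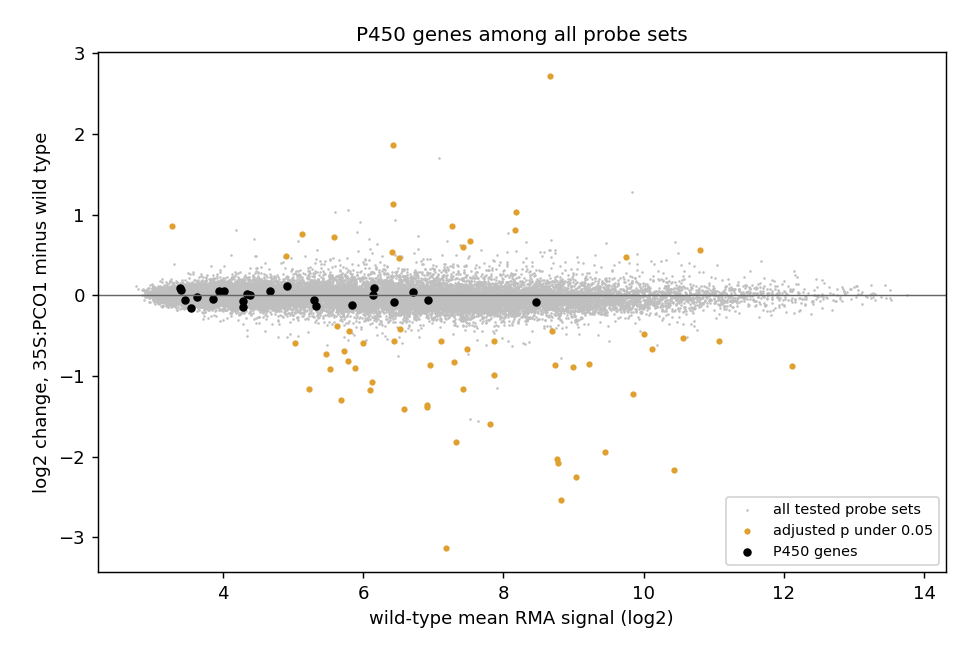
Wild-type mean RMA signal (log2, x axis) against the log2 change, 35S:PCO1 minus wild type (y axis), for all tested probe sets (grey), those with an adjusted p under 0.05 (orange) and the 23 P450 genes (black). The P450 genes lie between -0.16 and 0.11, within the cloud of probe sets that were not called.

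Of the lists of P450 functions, 5 of 13 had a measured gene, with 1 gene each, so 5 of the 104 listed names were covered and 18 of the 23 genes stood on no list. None of the 5 was called. CYP71B6, which oxidises indole-3-acetonitrile in the metabolism of indolic defence compounds, had signals of 8.37, 8.43 and 8.34 in 35S:PCO1 and 8.40, 8.47 and 8.52 in wild type. The groups overlapped, and the log2 change was -0.080 (SE 0.061, adjusted p = 0.708 by limma). The 95% interval ran from -0.22 to 0.059, and its lower end corresponds to a CYP71B6 signal 1.16-fold lower in 35S:PCO1. CYP79A2, which turns phenylalanine into its aldoxime on the way to benzylglucosinolate, had 3.74, 3.75 and 3.96 in 35S:PCO1 and 3.92, 3.80 and 3.88 in wild type. The third 35S:PCO1 array held the highest of these values and the first the lowest, and the log2 change was -0.047 (SE 0.077, adjusted p = 0.886 by limma).

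CYP78A9, whose overexpression enlarges fruits, had 4.74, 4.81 and 4.66 in 35S:PCO1 and 4.59, 4.90 and 4.55 in wild type. The second wild-type array was above all others and the other wild-type arrays were below all 35S:PCO1 arrays. The log2 change was 0.056 (SE 0.097, adjusted p = 0.892 by limma) over all arrays and 0.17 without wild type replicate 2, where its adjusted p was 0.418. CYP84A4 and CYP71B31, described above, were the measured genes of the phenylpropanoid list and the terpene list. CYP51G2, a relative of the sterol 14-demethylase that the gene table types as a transcribed pseudogene, stood on no list. It averaged 4.00 ± 0.16 in 35S:PCO1 and 3.95 ± 0.13 in wild type (SD, n = 3 each), with overlapping groups and a log2 change of 0.055 (SE 0.096, adjusted p = 0.895 by limma).

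The run of 11 CYP71B genes on chromosome 3 mixed dim and brighter probe sets and changes of both signs. Their wild-type means ran from 3.41 to 6.92, and their log2 changes from -0.16 to 0.11 with a median of 0.0080, 6 positive and 5 negative. No biochemical role is given here for these genes. In gene order, CYP71B16 averaged 3.40 ± 0.064 in 35S:PCO1 and 3.46 ± 0.11 in wild type (SD, n = 3 each, as in all means below), and CYP71B21 averaged 3.48 ± 0.067 in 35S:PCO1 and 3.41 ± 0.015 in wild type. CYP71B22 averaged 6.26 ± 0.19 in 35S:PCO1 and 6.16 ± 0.051 in wild type, a log2 change of 0.095 (SE 0.094). CYP71B24 had the highest change of the 23, 0.11 (SE 0.085, adjusted p = 0.712 by limma), with 4.88, 5.08 and 5.09 in 35S:PCO1 and 4.94, 4.77 and 5.01 in wild type. Its groups overlapped.

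Further along the run, CYP71B25 averaged 4.06 ± 0.24 in 35S:PCO1 and 4.01 ± 0.033 in wild type. CYP71B26 averaged 6.14 ± 0.11 in 35S:PCO1 and 6.14 ± 0.13 in wild type. The last 4 loci are adjacent: CYP71B34 averaged 6.87 ± 0.10 in 35S:PCO1 and 6.92 ± 0.10 in wild type, and CYP71B35 averaged 4.35 ± 0.043 in 35S:PCO1 and 4.34 ± 0.10 in wild type. CYP71B36 averaged 3.61 ± 0.024 in 35S:PCO1 and 3.63 ± 0.031 in wild type, with the smallest pooled SD of the 23 genes (0.028). In CYP71B25, CYP71B26, CYP71B34, CYP71B35 and CYP71B36 the difference between genotypes was smaller than the pooled SD of the replicates, and in CYP71B37, the last of the run, it was larger (0.16 in size against an SD of 0.070).

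The other runs held no called gene either. On chromosome 1, CYP71B28 averaged 6.76 ± 0.12 in 35S:PCO1 and 6.72 ± 0.14 in wild type. Its neighbour CYP71B29 had 5.18, 5.39 and 5.02 in 35S:PCO1 and 5.30, 5.19 and 5.48 in wild type, a log2 change of -0.13 (SE 0.11, adjusted p = 0.737 by limma) with overlapping groups. In the second run on chromosome 3, CYP71B30P averaged 4.21 ± 0.049 in 35S:PCO1 and 4.29 ± 0.038 in wild type, a log2 change of -0.075. The solitary CYP71B38 averaged 4.39 ± 0.064 in 35S:PCO1 and 4.40 ± 0.13 in wild type, with a log2 change of -0.0013, the closest to 0. Over all 23 genes the difference between genotypes was smaller than the pooled SD of the replicates in 16 and larger in 7, and over all probe sets it was at least as large in 36.8%.

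Spread within the genotypes was largest in CYP71B23 and CYP71B5, the 2 genes with a pooled SD over 0.2, beside a median of 0.10 for the P450 genes and 0.089 over all probe sets. CYP71B23 had 6.30, 6.62 and 6.15 in 35S:PCO1 and 6.39, 6.08 and 6.83 in wild type. Its log2 change was -0.077 (SE 0.18), between -0.25 without wild type replicate 2 and 0.12 without wild type replicate 3, with no call in any of these fits. CYP71B5, singled out after its values were seen, had 5.06, 5.55 and 5.13 in 35S:PCO1 and 5.38, 5.02 and 5.51 in wild type. In both genes the second 35S:PCO1 array was the highest of its group, the third wild-type array the highest and the second wild-type array the lowest of theirs. The same held in CYP71B29 and in CYP71B36, the gene with the smallest pooled SD.

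The second 35S:PCO1 array held the highest value of its genotype in 15 of the 23 genes, against 38.1% of all probe sets, and its median deviation from the group mean over the P450 genes was 0.063. In wild type the third array was highest in 11 of the 23, against 32.2% of all probe sets. The genes share these arrays and many of them share sequence, so the counts are a description. Without 35S:PCO1 replicate 2, 18 of the 23 changes were negative and the median was -0.041, beside a median of -0.014 over all probe sets. Without 35S:PCO1 replicate 3, 11 were negative and the median was 0.00054, beside -0.011 over all probe sets. The share of negative changes over all probe sets was not computed for these fits. None of the 23 genes was called in either fit.

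**Figure D4:**
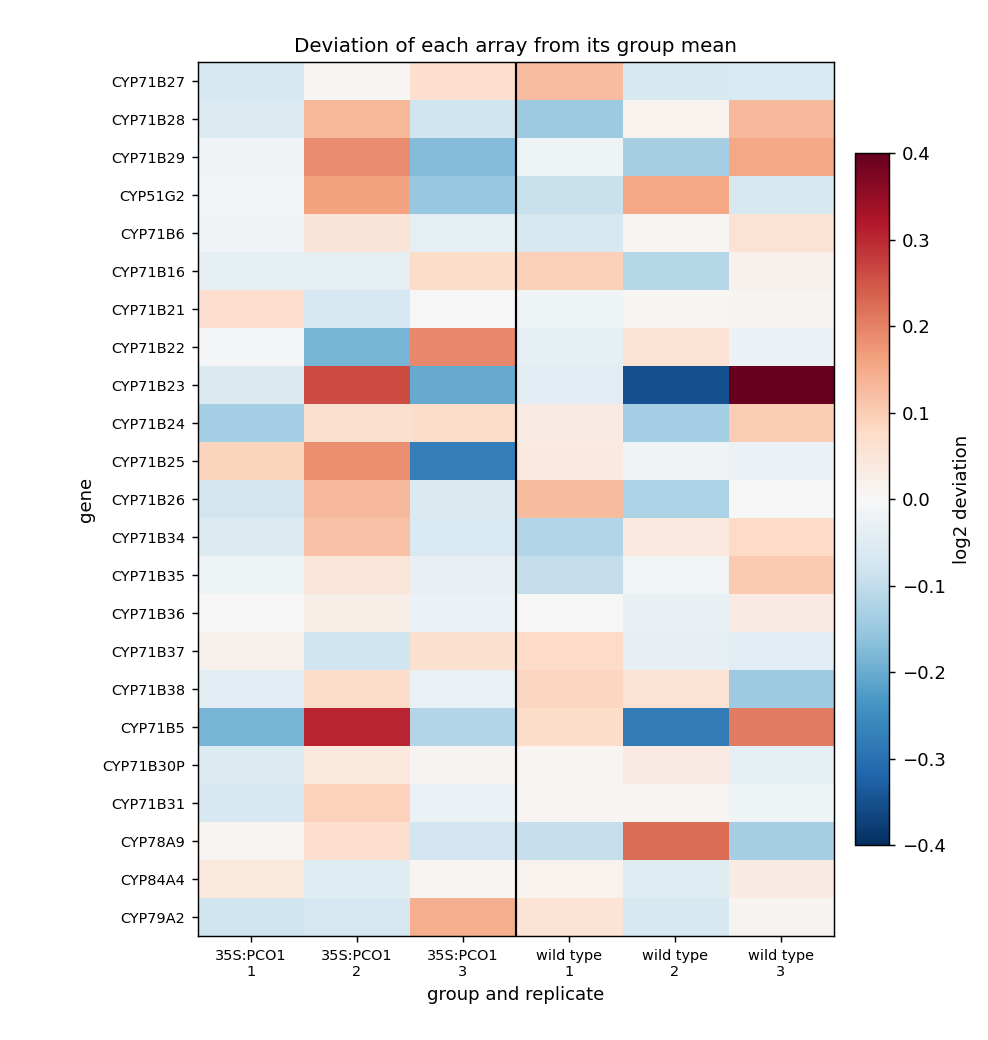
Deviation of each array from the mean of its genotype (log2, colour), for the 23 P450 genes (rows, in gene order) and the 6 arrays (columns, 35S:PCO1 left of the line and wild type right). CYP71B23 and CYP71B5 hold the strongest colours. In both, 35S:PCO1 replicate 2 and wild type replicate 3 lie above their group means and wild type replicate 2 below. CYP71B25 is also strong in 35S:PCO1 replicate 3 (-0.27).

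P450s need haem and electron donors. Of 10 listed genes of haem synthesis and breakdown, 3 were measured and none was called. HEMA2, a glutamyl-tRNA reductase at the start of tetrapyrrole synthesis, averaged 7.02 ± 0.086 in 35S:PCO1 and 7.11 ± 0.053 in wild type, a log2 change of -0.091 (SE 0.067, adjusted p = 0.696 by limma). HEMB1, a 5-aminolevulinate dehydratase, averaged 9.70 ± 0.075 in 35S:PCO1 and 9.73 ± 0.048 in wild type. HEME2, a uroporphyrinogen decarboxylase, averaged 9.01 ± 0.14 in 35S:PCO1 and 8.95 ± 0.045 in wild type. The 8 listed electron-transfer partners and the 33 listed P450 genes known by other symbols were not analysed here, for want of a one-gene probe set in the annotation used.

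Array medians lay between 5.86 and 5.91, and correlations between arrays across probe sets between 0.994 and 0.999. The second wild-type array stood apart, with -18.8 on the first principal component against -6.13 to 11.6 on the others, and with a log2 ratio of the 3 prime over the 5 prime GAPDH control of 0.813 against 0.271 to 0.435. Leaf markers were bright, with an array mean over the 3 measured of 8 of 12.9 on each 35S:PCO1 array and of 12.9 to 13.0 on the wild-type arrays. The 3 measured of 12 root markers averaged 5.85 to 5.87 in 35S:PCO1 arrays and 5.90 to 6.03 in wild-type arrays. Their log2 changes lay between -0.18 and -0.084, none called, and their part in the P450 values was not tested. Of 8 flower and seed markers 1 was measured, at 5.01 to 5.30 in 35S:PCO1 and 4.98 to 5.23 in wild type. The log2 scale has no 0, so none of these markers is listed as absent.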

How the data were processed

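Biotin-labelled total RNA was measured on Affymetrix Arabidopsis Genome GeneChips, with 1 colour and 1 sample per array, per the labels' protocols. The deposited values are log2 signals made by the authors with RMA (background correction, quantile normalization and median polish), per the submitters' processing notes; its version and probe definitions are not given in the sources used here. The table holds 22810 probe sets, of which 64 controls were left out of the tests. Names came from the platform annotation (13513 probe sets with 1 gene, 503 with several, 8730 unlisted), updated through TAIR10.1, which served for names and gene order only, since no build is stated for the probe sets.

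Both genotypes were set against each other in a 2-sided limma fit (lmFit, then eBayes; limma 3.58.1, R 4.3.3) without covariates. Gene lists and members were chosen with earlier results of these data known. The named genes were called members, the 6 highest and 6 lowest changes, the 6 highest wild-type means, the extremes of each family with at least 5 members, list members (up to 4 per list) and haem genes; other members are named to account for all 23. Alternatives are given in the closing section, and the procedure was checked on simulated data. The changes planted there were all larger than those of the P450 genes, so that check does not cover changes of the sizes seen here. The number of arrays limits the precision. No sequences were used here.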

Additional observations from a re-analysis of the deposited data

How the results depend on the processing

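No P450 gene was called under any alternative: the replicate number as a block, centring, repeated quantile normalization, trend and robust eBayes, array weights, the filter on dim probe sets (9 of the 23 tested), an adjusted p under 0.1, and each array left out. Excluding shared probe sets or averaging over a gene's probe sets could change only the p-values here, since each P450 gene has 1 unshared probe set, and gave no call either. The count over all probe sets was 60, and it was 26 with the replicate block and 255 with array weights. With 1 array left out it ranged from 23 to 60 (33 without 35S:PCO1 replicate 3, 24 without 35S:PCO1 replicate 1, and the lowest count without wild type replicate 1). The P450 count stayed at 0 in these 6 fits, while the median change ranged from -0.041 to 0.0076. Against -0.019 in the report, the median was -0.062 with array weights (14 of 23 negative, all probe sets -0.012). Over the 9 genes that passed the filter it was -0.059, beside -0.027 over all probe sets that passed. The filter leaves each log2 change as it was and alters only which genes enter the median. The replicate numbers were not taken as pairs: deviations of same-numbered arrays correlated at -0.059, -0.22 and -0.26 across probe sets, and no array correlated best with its own number. The block changed no P450 call. Of the 16 P450 genes named by rule, CYP71B26 changed sign with array weights (-0.087, adjusted p = 0.579), and 6 changed sign with an array left out: CYP71B28 (-0.032 to 0.11), CYP51G2 (-0.025 to 0.13), CYP71B22 (-0.0012 to 0.19), CYP71B23 (-0.25 to 0.12), CYP71B26 (-0.057 to 0.071) and CYP78A9 (-0.0095 to 0.17). HEMB1 did so too (-0.055 to 0.015). The cause of these shifts was not tested. Family levels moved by less than the spread between wild-type arrays under both rescalings.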

Other observations

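CYP718, a P450 gene whose symbol has no subfamily letter and which therefore fell outside the naming rule, had 5.43, 5.34 and 5.36 in 35S:PCO1 and 5.44, 5.38 and 5.04 in wild type. Its groups overlapped; limma gave a log2 change of 0.093 with an SE of 0.10 and an adjusted p = 0.811. It was picked after its values were seen.

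A probe set that the annotation pairs with 2 P450 genes of the CYP71B subfamily had 7.77, 7.90 and 7.77 in 35S:PCO1 and 7.62, 7.31 and 7.80 in wild type. Its log2 change was 0.24 (SE 0.11, adjusted p = 0.521 by limma), and the third wild-type array lay within the range of 35S:PCO1. Another probe set with 1 P450 gene among 2 genes averaged 3.70 ± 0.026 in 35S:PCO1 and 3.66 ± 0.036 in wild type (SD, n = 3 each). Neither can be assigned to a single gene.

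The symbols CYP71 and CYP59 on this array belong to cyclophilins, which share the prefix and are no P450s. CYP71 (AT3G44600) had a log2 change of 0.017 (SE 0.075) and CYP59 (AT1G53720) of -0.14 (SE 0.097), neither called.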
